A study of Mus musculus with 15 samples.

Results

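Ring1b-alone regions are stretches of the mouse genome at which the Ring1b peak list of early cardiac mesoderm precursors (MES) had a peak and none of the other 4 Polycomb peak lists of the study did. Overlapping peaks of all 5 lists were merged into 11853 regions on autosomes 1 to 19, and 2012 of them met this rule. They made up 26.6% (2012 of 7570) of the regions with a Ring1b peak. The members were selected on the presence and absence of called peaks, so the peak counts, widths and scores below describe how these regions were chosen as much as what they are, and no test was made on them. A missing peak is not a measured absence of protein, because read coverage was not analysed here.

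Polycomb repressive complex 1 (PRC1) is a family of chromatin complexes built around Ring1b or its paralogue Ring1a, the E3 ligases that attach ubiquitin to histone H2A. Canonical PRC1 holds a Cbx chromodomain protein such as Cbx2, which reads the methyl mark left on histone H3 by Polycomb repressive complex 2, together with a PCGF subunit such as Mel18 (Pcgf2). Variant PRC1 holds RYBP or its paralogue YAF2 in place of the Cbx protein and is recruited in other ways. In embryonic stem cells, PRC1 is known for its occupancy of the silent promoters of developmental regulators.

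All 5 lists came from E14Tg2A, a mouse embryonic stem cell line, with no genotype change named in the labels. Ring1b, RYBP, Cbx2 and Mel18 were mapped by ChIP-seq in MES, which were differentiated from that line with BMP4 at a dose tuned to each batch of that factor, and Mel18 was also mapped in undifferentiated embryonic stem cells (ESCs) grown with kinase inhibitors and LIF. The Ring1b antibody was made in house per the labels, and the other antibodies were commercial. Each list came from 1 sample, read depth was unknown, and whether replicates were pooled or which control was used for calling was not given in the sources used here. Of the Ring1b, RYBP, Cbx2, MES Mel18 and ESC Mel18 peaks, 8422, 7492, 3600, 4048 and 6394 lay on the chromosomes used. Peaks at the start of chromosome 9, up to position 3038554, were left out, which removed 12 Ring1b, 2 RYBP and 17 ESC Mel18 peaks. Intervals are at 95%, exact Clopper-Pearson for shares and by order statistics for medians. They cover counting only, since peaks are not replicates. Positions are on the mm9 build, counted from 1, and no gene was assigned to a region because no mm9 annotation was used here.

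Absence of every other list was the most frequent exact combination at Ring1b regions, although most of these regions (5558 of 7570) had another list. Ring1b alone was found at 2012 regions, against 1880 regions (24.8% of those with Ring1b) with peaks of all 5 lists and 1548 (20.4%) with RYBP as the only other list. Counted in Ring1b peaks the order was reversed, with 2485 in regions with all 5 lists and 2012 alone. Most Ring1b regions with any partner had RYBP, whose peaks lay at 65.6% of the Ring1b regions. Cbx2 was at 35.9% and MES Mel18 at 39.0%, and 42.8% carried Mel18 in ESCs. Ring1b with only MES Mel18 or only Cbx2 was uncommon, at 73 and 36 regions. A further 191 Ring1b regions had no MES partner but had a Mel18 peak in ESCs. Ring1b peaks lay in 63.9% of all merged regions, RYBP peaks in 56.4%, ESC Mel18 peaks in 44.2%, MES Mel18 peaks in 30.1% and Cbx2 peaks in 29.1%, so the lists differed in how often they could supply a partner.

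**Figure D1:**
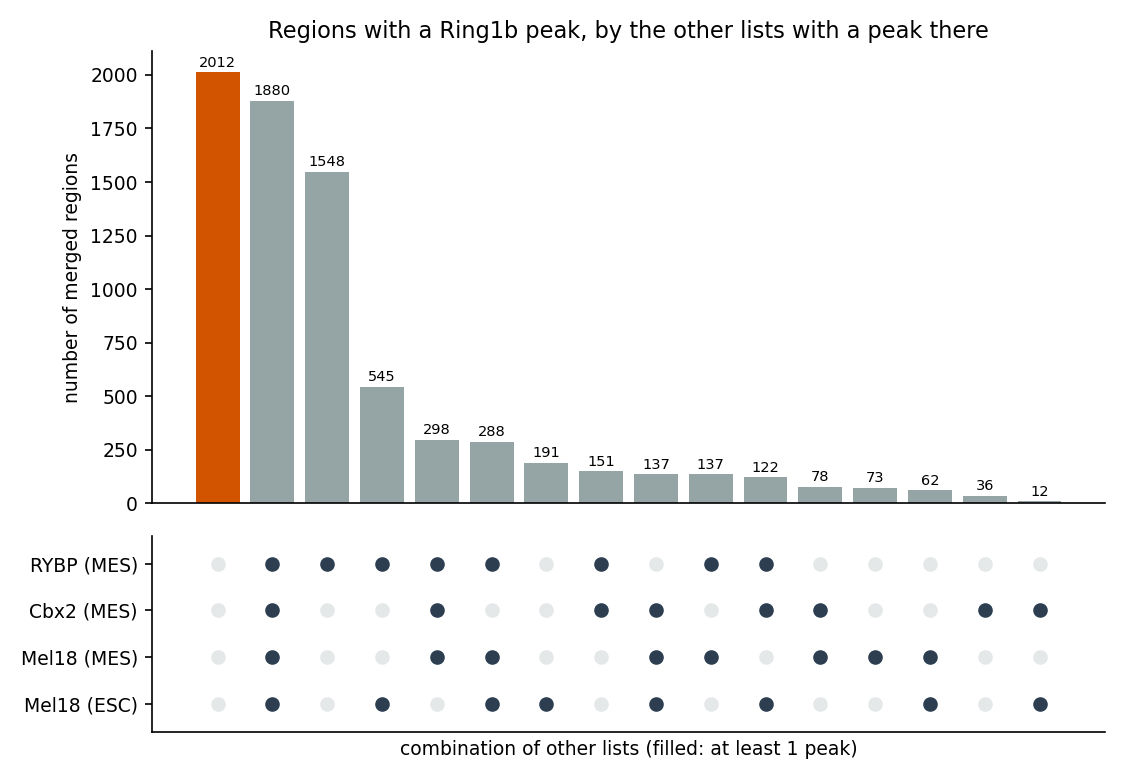
Number of merged regions with a MES Ring1b peak (vertical axis) for each combination of the other 4 peak lists, where filled circles mark lists with at least 1 peak. Ring1b alone (orange) held 2012 regions, against 1880 with all 5 lists and 1548 with RYBP only.

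Ring1b peaks that stood alone were narrow. Their width ran from 284 to 3076 bp with a median of 855.5 bp (interval 834 to 876) and quartiles of 640 and 1104 bp, and 90% were under 1350 bp. The 6410 Ring1b peaks in regions with another list had a median of 1361 bp (interval 1336 to 1383) and reached 71758 bp. A width of 2 kb or more was found for 14 of the Ring1b-alone peaks (0.696%) and for 1687 of the others (26.3%). Both widths come from the same sample and the same calling, although membership depends on all 5 lists and their depths. In all, Ring1b-alone peaks covered 1.81 Mb, which was 12.04% of the 15.05 Mb under Ring1b peaks.

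The authors' score of Ring1b-alone peaks was also low, although the range was wide. The score ran from 50.01 to 3221.92 in this list, and 296 of the 8641 deposited Ring1b peaks scored 3100 or more. Ring1b-alone peaks had a median score of 67.5 (interval 66.0 to 69.2) with quartiles of 56.5 and 95.2, against 141 (interval 137 to 145) with quartiles of 81.4 and 334 for the others. A score below 60 was given to 700 Ring1b-alone peaks (34.8%) and to 587 of the others (9.16%). In ranks within the Ring1b list, the median Ring1b-alone peak stood at the 23.7th percentile and the median of the other Ring1b peaks at the 59.6th. None of the Ring1b-alone peaks reached 3100, and the highest score among them was 1163.

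Width and score of Ring1b rose step by step with the number of other lists at a region, and the Ring1b-alone class stood at the low end. Median width was 855.5 bp with no other list, 1083 bp with 1, 1147 bp with 2, 1359 bp with 3 and 2137 bp with all 4. Median score was 67.5, 91.2, 99.8, 143 and 367 in the same order. The step to the nearest class depended on which list was added. Ring1b peaks with MES Mel18 only (74 peaks) had a median width of 845 bp (interval 771 to 931) and those with Cbx2 only (38 peaks) 906 bp (interval 729 to 1042), so neither could be told from the Ring1b-alone peaks by width. By score, those with MES Mel18 only stood higher, with a median of 76.3 (interval 70.6 to 85.4), while the interval of those with Cbx2 only (61.6 to 83.2) held the Ring1b-alone median. Ring1b peaks with RYBP only (1594 peaks) had a median of 1095.5 bp (interval 1077 to 1121), and those with ESC Mel18 only (194 peaks) 1050 bp (interval 965 to 1116), both above the interval of the Ring1b-alone peaks.

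The share of Ring1b peaks that stood alone was lower at higher score and width. Of the Ring1b peaks in the lowest score quartile, 50.1% (interval 47.9 to 52.3) were alone, then 28.1 and 14.1% in the middle quartiles, and 3.28% (interval 2.56 to 4.13) in the top quartile. The lowest quartile thus held 1055 of the 2012 regions, and the highest held 69. By width, the shares were 47.2% in the narrowest quartile, 30.8, 15.8 and 1.71% in the widest. The partner lists, counted anywhere in the merged region of a peak, changed together with these shares. RYBP was in the region of 40.4% of Ring1b peaks in the lowest score quartile and 94.5% in the highest. For Cbx2 the shares were 16.5 and 82.3%. Ring1b peaks in the same merged region share its lists, also where they do not overlap them. Low scores and missing partners therefore went together, and the part of peak calling near its threshold in this was not tested.

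**Figure D2:**
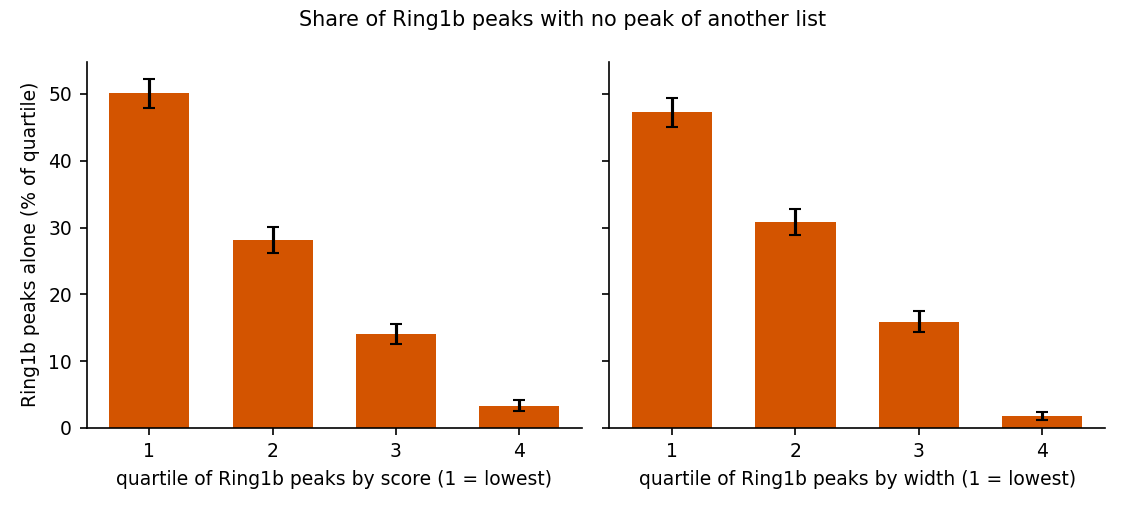
Share of Ring1b peaks with no peak of another list (vertical axis, percent) in quartiles of the Ring1b list by the authors' score (left) and by peak width (right), with exact Clopper-Pearson 95% intervals. The share is 50.1% in the lowest score quartile and 3.28% in the highest.

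Narrow peaks stood alone often in each score quartile, whereas wide peaks in the upper score quartiles seldom did. In the highest score quartile, 13 of 31 peaks of the narrowest width quartile were alone (41.9%), as were 28 of 102 of the second (27.5%), 26 of 355 of the third (7.32%) and 2 of 1618 of the widest (0.124%). In the lowest score quartile, the same shares were 56.6, 43.4, 39.1 and 18.2%, the last from 4 of 22 peaks. From the lowest to the highest score quartile, the share alone was 56.6, 32.8, 39.4 and 41.9% among peaks of the narrowest quartile. Among peaks of the widest quartile it was 18.2, 20.9, 2.93 and 0.124% in the same order. Across Ring1b-alone peaks, width and score had a Spearman rho of 0.41, against 0.78 across the other Ring1b peaks, as a description over peaks of 1 list.

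A small group of Ring1b-alone regions had high scores on narrow peaks. There were 21 with a score of 500 or more, and their widths ran from 711 to 1501 bp with a median of 1179 bp (interval 918 to 1278). Of the 1179 other Ring1b peaks with such scores, the median width was 3566 bp and 88.6% were 2 kb or wider, whereas none of the 21 was. The 45 Ring1b peaks with RYBP only and such scores were closer to them, with a median of 1448 bp (interval 1322 to 1765) and 3 of 2 kb or more. The 1048 with all 5 lists had a median of 3730 bp (interval 3597 to 3928). This score class has no upper bound, and the other Ring1b peaks reached 3222 while the Ring1b-alone peaks stopped at 1163. The 10 highest-scoring Ring1b-alone peaks (scores 710 to 1163) had a median width of 1226.5 bp. In that score range, 281 other Ring1b peaks had a median of 2993 bp and ran from 560 to 26593 bp. At scores from 60 to below 100, median widths were 884 bp (interval 858 to 908) for Ring1b alone, 1002 bp for Ring1b with RYBP only and 830 bp (interval 783 to 877) for all 5 lists. From 100 to below 200 they were 974 bp (interval 937 to 1025) for Ring1b alone and 1352 bp (interval 1276 to 1394) for all 5 lists, and from 200 to below 500 they were 1055.5 bp (interval 1011 to 1117) and 1969 bp (interval 1913 to 2023). Sites with all 5 lists were thus wider than Ring1b-alone regions in each score class from 100 upward and not in the class from 60 to below 100.

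**Figure D3:**
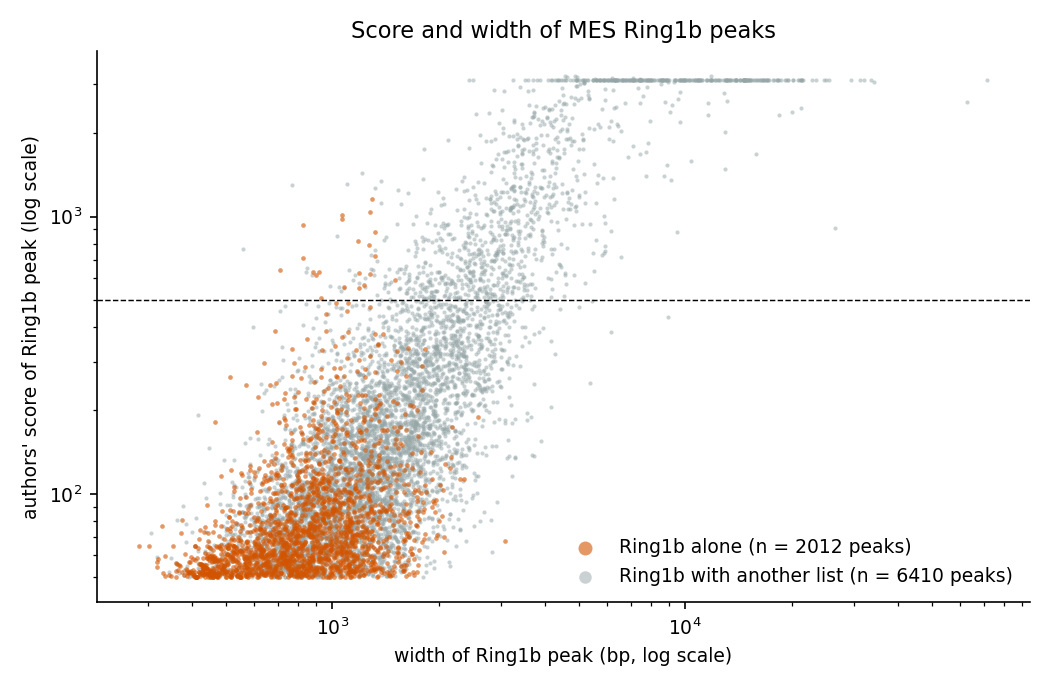
Authors' score (vertical, log scale) against width in bp (horizontal, log scale) of each MES Ring1b peak, for 2012 Ring1b-alone peaks (orange) and 6410 peaks in regions with another list (grey), with a dashed line at a score of 500. The 21 orange points above the line lie between 711 and 1501 bp, while most grey points above it are wider than 2 kb.

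The Ring1b-alone region with the highest score lay at chr4:117559106-117560397, 1292 bp wide with a score of 1163, and its nearest RYBP peak was 2.56 kb away. The next lay at chr12:111829150-111830427 (1278 bp, score 1044), where peaks of RYBP, Cbx2 and MES Mel18 were all 143 to 144 kb away. Both were narrow single peaks, and they differed in how close peaks of the other lists came. The region at chr8:13158526-13159590 (1065 bp, score 1013) had Cbx2, MES Mel18 and RYBP peaks at 39.8, 39.9 and 40.1 kb. The region at chr11:96557821-96558888 (1068 bp, score 980.3) was 152 kb from the nearest RYBP and MES Mel18 peaks. The region at chr17:24300097-24300924 was the narrowest of the first 5, with 828 bp and a score of 936, and its nearest peaks were 41.0 kb away for RYBP and 41.1 kb for MES Mel18.

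Ranks 6 to 10 showed the same spread of surroundings. The region at chr4:147412256-147413575 (1320 bp, score 878) was 90.0 kb from an ESC Mel18 peak and 90.1 kb from an RYBP peak. The region at chr10:126499896-126501074 (1179 bp, score 820.1) had the closest surroundings of the 10, with Cbx2 at 1.06 kb, ESC Mel18 at 1.96 kb and RYBP at 2.00 kb. Chromosome 6 held a pair of the 10 that lay 129 kb apart. The first, at chr6:116157338-116158611 (1274 bp, score 791), was 212 kb from the nearest peak of each of the other 4 lists, and another Ring1b-alone region lay 14.0 kb from it. The second, at chr6:116287654-116288477 (824 bp, score 709.7), was 122 kb from an ESC Mel18 peak and 290 kb from an RYBP peak. The region at chr7:52721489-52722808 (1320 bp, score 719) was 51.2 kb from RYBP. These 10 peaks, chosen for their scores, had widths of 824 to 1320 bp. In that width range, all 852 Ring1b-alone peaks had a median score of 76.6 and the 2075 other Ring1b peaks one of 99.0.

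**Figure D4:**
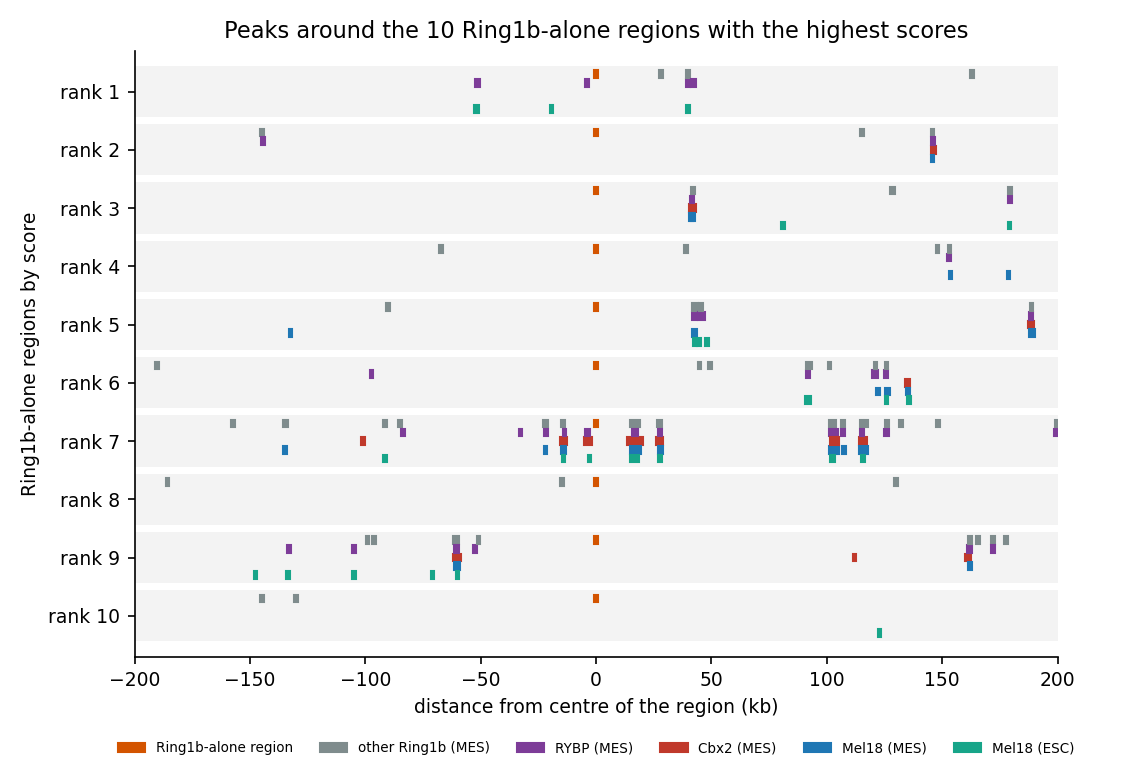
Peaks of the 5 lists within 200 kb on either side of the 10 Ring1b-alone regions with the highest scores, ordered by score from the top, with distance from the region's centre in kb on the horizontal axis (narrow peaks are widened so that they show). Rank 8 has no peak of another list in the window, while rank 7 has Cbx2, ESC Mel18 and RYBP peaks within 1.06 to 2.00 kb.

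Most Ring1b-alone regions lay more than 10 kb from any peak of the other 4 lists. The nearest peak of any of the other 4 lists was a median of 40.3 kb away (interval 37.3 to 43.8), with quartiles of 14.6 and 93.5 kb. Within 1 kb of such a peak lay 97 regions (4.82%, interval 3.93 to 5.85), within 10 kb 381 (18.9%, interval 17.2 to 20.7) and within 100 kb 1550 (77.04%). On both sides, peaks of other lists within 10 kb were found at 48 regions (2.39%), on 1 side at 333 (16.6%) and on neither side at 1631 (81.1%). Ring1b regions that did have another list lay a median of 41.3 kb (interval 39.0 to 43.7) from the next region with a peak of these 4 lists, which cannot be told from the Ring1b-alone distance. They more often had one close by, with 25.1% (interval 24.0 to 26.3) within 10 kb and 9.81% (interval 9.04 to 10.6) within 1 kb.

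By median distance, RYBP peaks came closest and those of MES Mel18 and Cbx2 lay farthest off. The median distance from a Ring1b-alone region was 58.9 kb (interval 53.9 to 63.0) to an RYBP peak, 82.6 kb (interval 77.1 to 90.7) to an ESC Mel18 peak, 126 kb (interval 117 to 138) to a MES Mel18 peak and 137 kb (interval 127 to 147) to a Cbx2 peak. This order is also that of the number of peaks in the lists. RYBP was the nearest list for 843 regions (41.9%) and held 34.8% of the peaks of the 4 lists. ESC Mel18 was nearest for 493 (24.5%, with 29.7% of the peaks), Cbx2 for 414 (20.6%, with 16.7%) and MES Mel18 for 262 (13.02%, with 18.8%). Edge distances include peak width, and its part in these values was not tested. The nearest list could also be decided by a small gap. At chr8:13158526-13159590, Cbx2, MES Mel18 and RYBP peaks lay at 39.8, 39.9 and 40.1 kb.

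**Figure D5:**
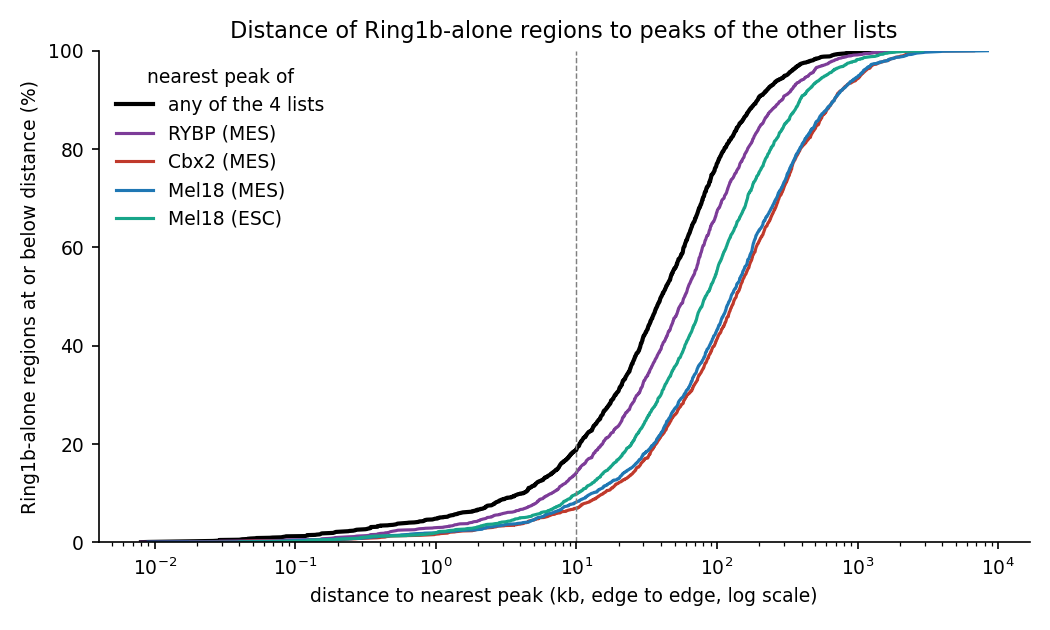
Share of the 2012 Ring1b-alone regions (vertical axis, percent) whose nearest peak of each other list lies at or below a given edge-to-edge distance (horizontal axis, kb, log scale), with a dashed line at 10 kb. At that line the black curve for any list is at 18.9% and the RYBP curve at 14.2%.

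Ring1b-alone regions within 1 kb of other sites had the lowest median width and score of the distance classes. The rule removes every Ring1b peak that reaches another peak, and its part in this was not tested. The 97 regions within 1 kb of another list's peak had a median width of 710 bp (interval 643 to 785) and a median score of 58.4 (interval 55.3 to 61.5). The 284 regions at 1 to 10 kb had 882 bp (interval 820 to 928) and 69.4, and the 1169 regions at 10 to 100 kb had 880 bp (interval 860 to 903) and 68.8. The 462 regions farther than 100 kb had 803 bp (interval 748 to 853) and a score of 65.8 (interval 63.9 to 69.2). Their width interval overlapped that of the regions within 1 kb, and their score interval did not. Of the 21 regions with a score of 500 or more, 5 lay within 10 kb of another list's peak and 6 beyond 100 kb.

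The rule cuts at a single shared base, and few regions lay near that edge. The members nearest to another peak were at chr1:94076939-94077820 (882 bp), 8 bp from an RYBP peak, and at chr4:135703200-135704103 (904 bp), 9 bp from a MES Mel18 peak. Next came chr19:46400854-46401907, 12 bp from RYBP, chr18:52689975-52690576, 18 bp from Cbx2, and chr10:126414997-126416087, 23 bp from RYBP. Their scores ran from 52.7 to 97.2. The chr18 region also lay 0.012 kb from a Ring1b peak with another list. Peaks of MES Mel18, ESC Mel18 and RYBP were 96, 299 and 470 bp from it. Just outside the rule, the Ring1b peak at chr1:19212450-19212956 (507 bp, score 53.0) shared 5 bp with a Cbx2 peak and the one at chr11:94744042-94744807 (766 bp, score 75.5) shared 6 bp with an ESC Mel18 peak. In total 25 members lay less than 100 bp from another peak, and 21 Ring1b peaks were outside the class by an overlap of less than 100 bp.

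The widest Ring1b-alone regions were not the ones with the highest scores. The widest spanned 3076 bp at chr8:73986605-73989680 with a score of 67.4, and an ESC Mel18 peak lay 759 bp away. The others were at chr11:98797257-98799841 (2585 bp, score 190.1), chr15:76552364-76554730 (2367 bp, score 113), chr11:119088333-119090637 (2305 bp, score 113) and chr2:33322926-33325102 (2177 bp, score 175). The most remote regions had scores on both sides of the class median of 67.5. At chr17:60279849-60280342 (494 bp, score 54.9) the nearest peak of another list was 2892 kb away, and at chr18:30428986-30429315 (330 bp, score 76.6) it was 1661 kb away. The regions at chr17:95148703-95149749, chr1:46909238-46909957 and chr9:6168285-6168876 were 1546, 1511 and 1372 kb from any other list, with scores of 65.1, 127 and 50.95. The lowest scores, 50.01 to 50.02, were those of chr7:105457138-105458096, chr9:61577889-61578436 and chr10:69766717-69767292, which were 959, 548 and 576 bp wide.

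When Ring1b-alone regions within 10 kb of each other were joined, 1896 had no such neighbour and 116 (5.77%) formed 58 pairs. The same count was not made for other Ring1b regions, so this share has no baseline. There were 0 groups of 3 or more. This joining left out all other Ring1b peaks. Of the Ring1b-alone regions, 230 (11.4%) lay within 10 kb of a Ring1b peak with another list, a larger set of 6410 peaks. The first pairs in chromosome order were chr1:123074052-123075688, chr1:132611767-132614627, chr1:156929777-156939552, chr1:182771669-182781521 and chr2:9821273-9827915, which were named by position because all pairs tied in size. The next Ring1b-alone region was a median of 175 kb away (interval 158 to 192). Along the chromosome, the Ring1b region that followed a Ring1b-alone region was itself alone in 576 of 2010 cases (28.7%), and the one that followed a shared region was alone in 1431 of 5541 (25.8%), both near the 26.6% of all Ring1b regions.

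Their share of the Ring1b regions was near the overall value on most autosomes. It ran from 20.1% on chromosome 18 (46 of 229, interval 15.1 to 25.9) to 32.8% on chromosome 17 (118 of 360, interval 27.9 to 37.9), and on the other 17 of 19 autosomes the interval held the overall value of 26.6%. Their density ran from 0.529 per Mb on chromosome 18 to 1.62 per Mb on chromosome 11, where Ring1b regions were also densest at 5.51 per Mb. Median width per chromosome was 689 bp on chromosome 14 at the lowest and 921 bp on chromosome 7 at the highest.

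Every list had regions of its own, and the share was higher for Ring1b than for the other MES lists. Of the regions of each list, 26.6% were alone for Ring1b (interval 25.6 to 27.6), 18.4% for RYBP (17.5 to 19.4), 12.4% for Cbx2 (11.3 to 13.6), 10.5% for MES Mel18 (9.53 to 11.6) and 31.1% for ESC Mel18 (29.9 to 32.4). The lone peaks ranked low within their own list in each case, with median percentiles of 23.7 for Ring1b, 20.1 for RYBP, 12.4 for Cbx2, 10.9 for MES Mel18 and 19.995 for ESC Mel18. Median widths were 855.5 bp for lone Ring1b peaks, 1077.5 bp for RYBP, 966.5 bp for Cbx2, 674 bp for MES Mel18 and 660 bp for ESC Mel18. Lone Cbx2 and MES Mel18 peaks lay closer to peaks of the other lists, at medians of 19.2 kb (interval 12.9 to 24.4) and 21.4 kb (interval 17.5 to 29.5), than the Ring1b-alone regions at 40.3 kb. Lone RYBP peaks were at 49.7 kb (interval 44.6 to 55.4) and lone ESC Mel18 peaks at 37.2 kb (interval 33.8 to 40.3). These lists were made from samples of unknown depth, and each set was measured against a different group of 4 lists, so the values stand side by side without a test.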

How the data were processed

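Peak lists of 5 ChIP-seq samples were used, with 1 sample per list. The remaining samples of the series were not analysed here. Reads were placed on mm9 and Bowtie and TopHat were named as tools, per the submitters' processing notes. Peak names carry the tag of MACS, per the file headers and peak names, and its version and settings are not stated there. Each deposited peak has 1 score by the authors, of unstated scale, which was ranked only within its list. Depth was unknown.

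Peaks on autosomes 1 to 19 that overlapped by at least 1 bp were merged, and a region was kept when Ring1b was the only list in it. Merging was checked against bedtools 2.31.1 (0 of 11853 regions differed) and on simulated data (0 of 5000 differed). Distances were edge to edge. The regions named were the 10 highest in score, the 5 widest, the 5 farthest from and the 5 nearest to another list, the first 5 clusters and the 3 lowest in score. No test was run, since each group had 1 sample and the rule used the same peaks. The regions, measures and naming rule were chosen with earlier results of these data known. The split at a score of 500, the score and width classes, the distance classes and the other lists' lone peaks were added after seeing the data. Calculations used pandas 2.3.3 and numpy 2.4.6 in Python 3.11.15, intervals scipy 1.17.1 and plots matplotlib 3.10.9. Sequence and gene features, planned for an mm9 genome or annotation, were not used here.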

Additional observations from a re-analysis of the deposited data

How the results depend on the processing

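No paired analysis was possible because every list came from a single sample. Of 38 values recomputed under the alternatives, 21 stayed the same. This meant within the interval, within 1.5 times for the number of members, and an equal count for clusters. The size of the class changed when lower-scoring peaks were left out. With the upper 50% of the Ring1b list by score, 370 regions were alone (9.55%), their median width was 1024.5 bp against 1808.5 bp for the other Ring1b peaks, and their median percentile 63.0 against 76.5. With the upper 50% of the other 4 lists, 3749 were alone (49.1%), with 937 bp against 1592 bp and percentiles of 29.8 and 69.8. The share within 10 kb of another list was 12.4 and 11.2% under these settings, 22.5% when an overlap of 50% of the shorter peak was required and 14.6% with peaks within 1 kb joined. These moves follow in part from which peaks each setting leaves in. Ring1b-alone peaks were the narrower in all 5 settings. With a joining gap of 20 kb, 2 clusters of 3 or more were found. Of the 2012 regions, 1910 were alone under the rules of 1 bp, 50% and 1 kb. The 21 regions with a score of 500 or more became 32, of 711 to 1815 bp, with the upper 50% of the other 4 lists. The alternatives for transcript starts and CpG content were not run, since no mm9 reference was used. Unknown depth limits what a missing peak means.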

Other observations

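The X chromosome, left out of the class by its rule, had 51 Ring1b-alone regions among 171 with a Ring1b peak (29.8%, interval 23.1 to 37.3). Their median width was 614 bp and their median score 64.7, against 855.5 bp and 67.5 on the autosomes. No intervals were computed for these X medians. Other Ring1b peaks on X were not measured, so whether the lower width is particular to Ring1b-alone peaks was not tested. The Y chromosome had 0 Ring1b peaks and 5 RYBP, 1 Cbx2 and 9 ESC Mel18 peaks.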
